A study of Mus musculus with 155 samples.

Results

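The comparison covered 10 RNA-seq libraries of mouse cells carrying H3.3K27M, the lysine-to-methionine mutant of histone H3.3 found in diffuse midline glioma. Of these, 2 came from oligodendrocyte progenitor cell (OPC) cultures and 8 from embryonic stem cells (ESCs), among 42 RNA-seq libraries and 155 samples in the series. Their labels set which libraries belong. KH2 is an ESC line built for inducible transgenes, and each line used here carried a single copy of SNAP- and HA-tagged H3.3 under doxycycline (Dox) control, expressed on top of the cells' own H3.3. The H3.3K27M ESCs were grown in serum with LIF and 2i, and 2 libraries were taken at each of 4, 8, 24 and 72 h of Dox. The OPC cultures of the same line were made through embryoid bodies and gave 1 library at 24 h and 1 at 72 h of Dox. The methods name retinoic acid and purmorphamine, an activator of Hedgehog signalling, for the embryoid body stage only. The cells were then plated and kept in OPC medium. WT-H3.3 cells, which carried the same tagged transgene without the mutation and received the same Dox, gave 8 ESC and 2 OPC libraries and served to compare the ESC-to-OPC change between lines. The methods describe 2 biological replicates per experiment, made at different times. In the OPC labels replicate 1 is the 72 h library and replicate 2 the 24 h one, while the count columns carry a single number, so that replicate and Dox time cannot be told apart. The p-values measure the spread between these libraries, mostly between ESC replicates of the same time. Whether the 2 OPC libraries of a line are separate differentiations cannot be told, so spread between differentiations may not be covered. The labels name no clones, and spread between clones was not measured.

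OPCs arise from neural progenitors that express Olig2 and Nkx2-2, transcription factors of the ventral spinal cord and of the oligodendrocyte lineage. They divide, carry the PDGF receptor PDGFRα and the proteoglycan NG2 on their surface, and depend on Sox10 to mature into myelinating oligodendrocytes. ESCs instead are kept undifferentiated by a network of factors around Pou5f1, Sox2 and Nanog. Methionine in place of lysine 27 of H3 inhibits PRC2, the complex that trimethylates that residue and holds developmental genes silent. The comparison asked how the transcriptome of cells bearing this mutant differed between the pluripotent state and cultures directed towards OPCs. In the paper, OPCs are named as the proposed cell of origin of the tumours.

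The libraries labelled OPC expressed much of the oligodendrocyte lineage programme, but not all of it. Levels are given as CPM, the count scaled to the size of its library, with all values put on 1 scale over the 20 libraries of both lines, and changes as log2 fold changes with their standard error (SE). Olig2 stood at 1048 CPM at 24 h and 1093 CPM at 72 h of Dox in the OPC cultures, against a lowest, median and highest of 10.9, 21.3 and 32.1 CPM over the 8 ESC libraries. Both OPC libraries therefore lay far above every ESC library, and the log2 fold change was 5.71 (SE 0.27, adjusted p = 4.7e-09). Its partner Olig1 stood at 625 and 725 CPM, against 8.19 to 15.4 CPM in ESCs. Nkx2-2, a Hedgehog-induced factor, rose from at most 0.118 CPM to 82.7 and 129 CPM. Cspg4, which encodes NG2, stood at 78.3 and 106 CPM and did not exceed 0.477 CPM in any ESC library. Sox8, Ptprz1, Cspg5, Sox6 and Bcas1, all of them expressed in OPCs or in early oligodendrocytes, were also called higher. Of these, Ptprz1 had the largest log2 fold change, at 9.46, and Bcas1 the smallest, at 4.32.

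Pdgfra and Sox10, which define OPCs, did not follow. Pdgfra stood at 0.605 and 0.852 CPM in the OPC cultures, from 4 and 6 counts, and at 0.302 to 1.47 CPM in ESCs. The groups overlapped, and the difference did not pass the test (log2 fold change -0.35, SE 0.59, adjusted p = 0.60). Sox10 was covered by 1 and 4 counts in the OPC libraries and was too low to be tested. In WT-H3.3 OPC cultures Pdgfra stood at 16.5 and 24.8 CPM and Sox10 at 2.03 and 3.61 CPM. The label OPC is therefore kept below only as the name of these cultures. In a bulk sample, fewer cells of a type and less RNA per cell cannot be told apart.

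Over the 23 genes of the OPC identity list, 22 were matched to the count tables, 4 were too low to test, and 14 of the remaining 18 were called higher and 2 lower (C1ql1 and Susd5), or 1 lower without either OPC library, the second ESC replicate at 4 or 8 h, the first at 24 h or either at 72 h. Called means here that the adjusted p was below 0.05 and that the change was more than 2-fold in either direction. Across all 14329 genes tested, 29.6% were called higher and 36.4% lower, 66.0% in all, and list counts are to be read against these shares. The summed level of the OPC identity list was 3608 and 4093 CPM in the OPC cultures and 184 to 234 CPM in ESCs. Of 20 genes of myelin and mature oligodendrocytes, 13 were tested, none was called higher and 7 were called lower. Mog and Mag, surface proteins of myelin, had no count in either OPC library.

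**Figure D1:**
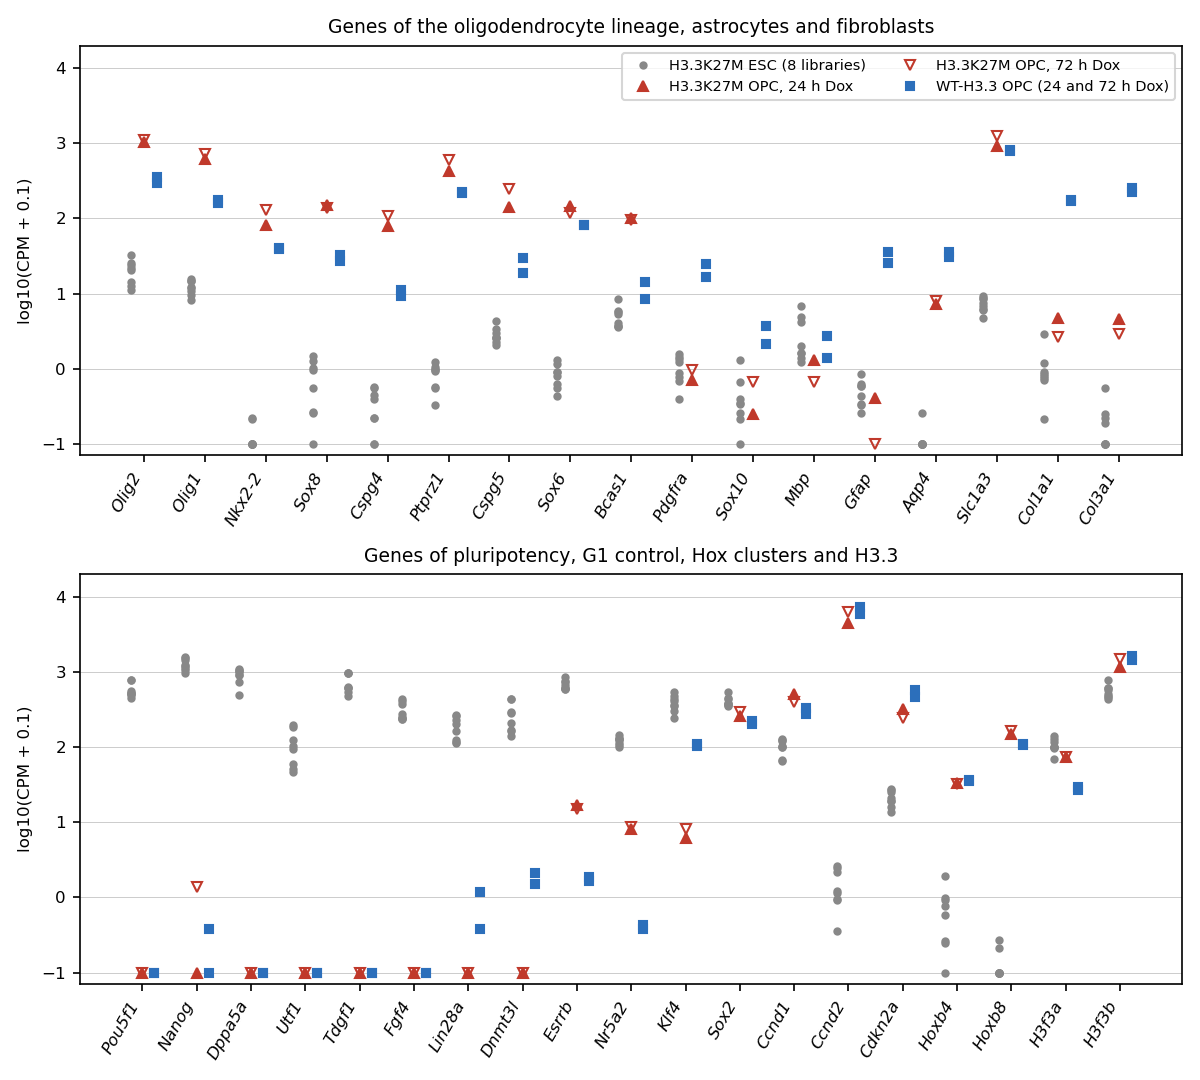
Level of single genes in each library, as log10(CPM + 0.1), where a value of -1 stands for no count. Grey points are the 8 H3.3K27M ESC libraries, red triangles the H3.3K27M OPC libraries at 24 h (filled) and 72 h (open) of Dox, and blue squares the 2 WT-H3.3 OPC libraries. Olig2 (1048 and 1093 CPM) lies above all ESC libraries and Pdgfra (0.605 and 0.852 CPM) among them, while Pou5f1, Dppa5a and Utf1 have no count and Sox2 lies at 260 and 296 CPM.

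The transcriptomes differed over most of the genes tested. The quasi-likelihood test of edgeR called 4240 genes higher in the H3.3K27M OPC cultures than in the H3.3K27M ESCs and 5219 lower. Both OPC libraries lay above all 8 ESC libraries for 36.6% of the tested genes and below them all for 42.1%. The mean Spearman coefficient with the other H3.3K27M ESC libraries, over 13263 genes, was 0.595 and 0.591 for the OPC libraries and 0.974 to 0.983 for the ESC libraries. The difference of -0.386 between the group means had p = 0.022 in an exact two-sided permutation test, which is the smallest value that 45 arrangements allow. Each coefficient was taken against libraries labelled ESC, so the values depend on the labels under test. The ESC values also share libraries and are not independent of each other. The permutation p therefore cannot decide whether the groups differ, and only the size of the difference is read here. The OPC libraries correlated with each other at 0.992. In the WT-H3.3 line the OPC libraries had coefficients of 0.580 and 0.588 with their own ESCs.

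A share of these changes fell on genes that cells of every type use, and in opposite directions. Among 35 cytosolic ribosomal protein genes, 5 were called higher and 12 lower, with log2 fold changes from -5.18 for Rps6 to 2.76 for Rpl27. Rps6 stood at 14.4 and 21.6 CPM in the OPC cultures and at 530 to 798 CPM in ESCs, whereas Rps14, of the same small subunit, stood at 4312 and 4158 CPM against 487 to 1062 CPM. The summed level of the list was 35502 and 40060 CPM in the OPC cultures, inside the ESC range of 29348 to 43557 CPM. Of 23 genes of oxidative phosphorylation tested, 6 were called higher and 4 lower, from a log2 fold change of -3.82 for Uqcrc2 to 3.53 for Ndufa1. Some abundant genes with many processed copies in the genome were low in the OPC libraries. These were named after their values were seen, and include Eef1a1, a translation elongation factor, at 91.5 and 90.1 CPM against 5642 to 8505 CPM, and the glycolytic enzyme Gapdh at 58.7 and 100 CPM against 1035 to 2251 CPM. Actb was 5322 and 4779 CPM against 2099 to 4272 CPM and did not pass the fold threshold. Of the other common genes looked at in this way, Hsp90ab1 (log2 fold change 0.04), Ybx1 (-0.36) and Eef2 (-0.68) were not called. Hnrnpa1 (-3.61), Ptbp1 (-8.59) and Pcbp2 (-4.68) were called lower and Tuba1a (5.34) higher.

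Eef1a1 and Gapdh were low in the WT-H3.3 OPC libraries too, with Eef1a1 at 36.9 and 38.2 CPM and Gapdh at 71.6 and 95.2 CPM. The change in Eef1a1 differed between the lines (1.23 on the log2 scale, SE 0.24, adjusted p = 0.0012), and for Gapdh that difference did not pass. Annotated pseudogenes took 0.510% to 0.628% of the counts in the H3.3K27M OPC libraries and 0.194% to 0.224% in the ESC libraries. In the WT-H3.3 line the share was 0.303% to 0.428% in OPC libraries and 0.21% to 0.245% in ESC libraries. Gene by gene most pseudogenes fell: of 360 tested in H3.3K27M cells, 22.5% were called higher and 67.8% lower, against 29.6% and 36.4% of all genes. The median log2 fold change was -0.07 in the shortest of 5 equal classes of exon length, -0.31 in the middle class and -0.11 in the longest. The methods name 2 library kits, of which 1 reads the 3′ ends of transcripts, without saying which libraries each made. The part of the kit in these changes was not tested, and for a single gene it cannot be told apart from the cell type. The difference in change between the lines, given further on, had no call among the ribosomal or the oxidative phosphorylation genes. Under the alternatives run it had at most 3 among the ribosomal genes. Its median was 0.39 for ribosomal and 0.02 for oxidative phosphorylation genes, against 0.01 over all genes. By exon length it was 0.15 in the shortest class, -0.04 in the middle and -0.09 in the longest. The part of the kit in the difference between lines was not tested either.

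Pluripotency genes were low or without counts in the OPC cultures. Of 22 tested genes of the general and primed pluripotency list, 21 were called lower and none higher, and of 17 of the naive list 16 were called lower and none higher. Pou5f1, the central factor of the network, had no count in either OPC library and stood at 456, 526 and 793 CPM (lowest, median and highest) in ESCs. Dppa5a, an ESC-specific RNA-binding protein, and Utf1, a chromatin factor of ESCs, also had no count. With the floor set at 3 counts per library (0.426 to 0.454 CPM in the OPC libraries), Pou5f1 was at least 1321-fold lower, Dppa5a at least 2051-fold lower and Utf1 at least 245-fold lower. Nanog had 0 counts at 24 h and 9 counts at 72 h, or 1.28 CPM, against 975 to 1589 CPM in ESCs (log2 fold change -10.92, SE 0.63). The Nodal co-receptor Tdgf1, Fgf4, the growth factor through which ESCs prime their exit from pluripotency, Lefty2, Tdh, L1td1, Dnmt3l and Lin28a were likewise without a count in both OPC libraries. Together with Dppa5a, Pou5f1 and the predicted gene Gm13225 they were the 10 largest falls among genes at or above 20 CPM in ESCs. Of the genes tested, 1159 had no count in either OPC library, and 1152 of them were called lower. Such a gene is tested only if its ESC counts are high enough, so these calls were close to set by that filter.

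Sox2 and Stat3 were the genes of these lists that were tested and not called. Sox2 stood at 260 and 296 CPM in the OPC cultures and at 357, 378 and 533 CPM (lowest, median and highest) in ESCs. Both OPC libraries lay below every ESC library, but the change did not reach 2-fold (log2 fold change -0.58, SE 0.16, adjusted p = 0.0066). Sox2 is shared by ESCs and neural progenitors. Stat3, the effector of LIF signalling, overlapped at 145 and 156 CPM against 119 to 183 CPM. Esrrb and Nr5a2, nuclear receptors of the naive state, fell but not to 0. Esrrb stood at 16.9 and 14.8 CPM against 591 to 869 CPM in ESCs, and Nr5a2 at 8.02 and 8.67 CPM against 102 to 144 CPM.

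The stretch upstream of Nanog is shown because it carries the paired element through which Sox2 and Pou5f1 bind, and because Sox2 stayed expressed in the OPC cultures while Pou5f1 and Nanog did not. It is the 120 bases before the start of transcription at chr6:122707369-122707488 on the plus strand (RefSeq, GRCm38.p6), with the match to that SOX-octamer motif, in which 1 position may be any base, in capitals.
Nanog: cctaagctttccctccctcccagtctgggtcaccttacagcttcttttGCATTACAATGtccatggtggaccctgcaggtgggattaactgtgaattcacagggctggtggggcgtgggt
Searched on both strands in the 250 bases before each start, this motif was in 0.0578% of all 32851 windows. It was in 2 of the 16 windows of the naive pluripotency list and in none of the 26 of the general and primed list. A match describes the letters only.

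Among genes at or above 20 CPM in the OPC cultures, the 10 with the largest log2 fold change were Fabp7, Tnc, Grm5, Gabra2, Timp4, Chl1, Mlc1, Gpm6b, Ptn and E130114P18Rik. Fabp7, the fatty-acid-binding protein of radial glia, stood at 2946 and 4348 CPM and had no count in any ESC library, and was at least 9452-fold higher. Tnc, a matrix glycoprotein of glial progenitors, stood at 888 and 963 CPM against at most 0.112 CPM. Grm5 and Gabra2, receptors for glutamate and GABA, stood at 211 and 317 CPM and at 279 and 226 CPM, with no count in ESCs. Ptn, a secreted ligand of the receptor encoded by Ptprz1, rose to 584 and 741 CPM from at most 0.345 CPM.

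Of 18 tested astrocyte genes 14 were called higher and 3 lower. Slc1a3, a glutamate transporter of radial glia, astrocytes and progenitors, stood at 920 and 1266 CPM against 4.61 to 9.25 CPM (log2 fold change 7.25, SE 0.17). Sox9, a factor of glial specification, rose to 666 and 785 CPM from at most 0.489 CPM. Gfap, the intermediate filament of mature astrocytes, had 0.302 CPM at 24 h and no count at 72 h. Aqp4, the water channel of astrocyte endfeet, was called higher at only 7.11 and 7.81 CPM. Aldh1l1, Clu and Apoe, which astrocytes also express, were called lower than in ESCs.

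Of 18 neural progenitor genes tested, 13 were called higher and 3 lower, and of 21 neuronal genes, 12 were called higher and 8 lower. Nkx6-1, a ventral progenitor factor, stood at 386 and 273 CPM and Pax6 at 29.9 and 28.1 CPM. Nes, the intermediate filament of progenitors, rose from 37.9 to 83.9 CPM in ESCs to 245 and 228 CPM (log2 fold change 1.84). Among neuronal genes, Mtap2 rose to 1674 and 1811 CPM and Syt1, a calcium sensor of synaptic vesicles, to 205 and 300 CPM, while Stmn2, Nefl and Nefh were called lower. Snap25 was too low to test.

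Markers of other cell types were mostly low. The summed level of the 18 microglia and macrophage genes was 2.12 and 1.70 CPM, and Aif1 and Ptprc had no count. Endothelial genes summed to 23.9 and 14.8 CPM, below the ESC range of 126 to 200 CPM, and epithelial genes to 1.81 and 2.56 CPM, against 279 to 445 CPM. All 11 epithelial genes tested were called lower, among them Epcam, the adhesion molecule of ESC colonies, from 84.5 to 112 CPM in ESCs to 0 and 0.142 CPM. Of 18 fibroblast and matrix genes tested, 10 were called higher and 3 lower, at low levels for the defining collagens. Col1a1 stood at 4.69 and 2.56 CPM and Col3a1 at 4.54 and 2.84 CPM, and Lum was at 1.21 and 0.71 CPM, too low to test. Of 8 muscle genes tested, 2 were called higher (1 without the OPC library at 24 h) and 4 lower, and of 11 neural crest and Schwann cell genes 4 were called higher, Fabp7 among them, and 7 lower. Of 7 trophoblast genes 6 were called lower, of 14 germline genes 12 lower and 1 higher, and of 12 extraembryonic endoderm genes 5 higher and 6 lower.

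Genes of the cell cycle were in part lower in the OPC cultures than in ESCs. Of 38 DNA replication genes tested, 24 were called lower, 1 higher (Rpa2) and 13 did not pass, with a median log2 fold change of -1.42 against -0.23 over all genes. Mcm2, a subunit of the replicative helicase, stood at 220 and 216 CPM against 568 to 648 CPM (log2 fold change -1.51, SE 0.16), and Pcna, the replication clamp, at 95.4 and 88.7 CPM against 255 to 434 CPM. Of 38 mitosis genes, 18 were called lower, 5 higher and 15 did not pass. The kinases Cdk1 and Plk1 were among those called higher. Cdk1 stood at 885 and 912 CPM against 218 to 336 CPM (log2 fold change 1.68, SE 0.19) and Plk1 at 730 and 686 CPM against 167 to 207 CPM. Birc5, Cdca8 and Pttg1 were the others called higher. Ccnb1, the mitotic partner of Cdk1, overlapped between the groups at 249 and 290 CPM and 223 to 368 CPM.

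Promoters of 4 genes of the DNA replication and mitosis lists are shown, because most genes of these lists moved together between the lines. That difference is described further on. Mitotic promoters often carry several CCAAT boxes, bound by NF-Y, and a cell cycle gene homology region (CHR), bound by the DREAM and MuvB complexes. The stretches are the 120 bases before the RefSeq start (GRCm38.p6), all on the minus strand. Matches to CCAAT and to the CHR letters TTTGAA, on either strand, are in capitals. They lie at chr10:69352913-69353032 for Cdk1, chr13:100786487-100786606 for Ccnb1, chr11:99024190-99024309 for Top2a and chr4:118437344-118437463 for Cdc20.
Cdk1: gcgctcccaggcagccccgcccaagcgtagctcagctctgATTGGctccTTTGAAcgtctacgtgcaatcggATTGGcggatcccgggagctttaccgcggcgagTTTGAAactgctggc
Ccnb1: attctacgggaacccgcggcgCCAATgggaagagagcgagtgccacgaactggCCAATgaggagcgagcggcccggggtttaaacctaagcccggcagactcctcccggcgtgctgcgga
Top2a: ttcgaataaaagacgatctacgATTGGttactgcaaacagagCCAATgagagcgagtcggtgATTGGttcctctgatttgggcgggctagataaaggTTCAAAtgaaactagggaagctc
Cdc20: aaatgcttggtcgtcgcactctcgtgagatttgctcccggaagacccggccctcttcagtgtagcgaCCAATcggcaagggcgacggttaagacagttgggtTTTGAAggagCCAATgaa
CCAAT was in 23 of the 33 windows of the mitosis list (69.7%) and in 27 of the 42 of the DNA replication list (64.3%), against 33.8% of all windows and 12 of 31 for ribosomal proteins (38.7%). TTTGAA was in 11 of the 33 mitosis windows (33.3%), in 5 of the 42 DNA replication windows (11.9%) and in 1 of the 31 ribosomal ones (3.23%), against 5252 of all 32851. The letters of the motifs can share at most 1 base, and the windows held 31 of the 38 mitosis genes and 37 of the 45 replication genes. A part of these motifs in the changes was not tested.

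Regulators of G1 changed in both directions. Of 14 genes of CDK inhibitors and G1 cyclins, 6 were called higher, 4 lower and 4 did not pass. Over all genes 29.6% were called higher and 36.4% lower, so these counts are no result about the list as a set. Ccnd2, a D-type cyclin, stood at 4516 and 6286 CPM in the OPC cultures and at 0.262, 1.08 and 2.48 CPM (lowest, median and highest) in ESCs (log2 fold change 11.93, SE 0.38). Ccnd1 rose to 505 and 398 CPM from 65.6 to 130 CPM, while Ccnd3, Ccne1 and Cdk4 were called lower. Cdkn2a, which encodes the inhibitors p16Ink4a and p19Arf that Polycomb holds silent in young cells, stood at 325 and 241 CPM against 13.4 to 28.0 CPM (log2 fold change 3.72, SE 0.22, adjusted p = 2.8e-08). The counts do not separate its transcripts. Cdkn1a, the p53 target that encodes p21, stood at 367 and 299 CPM and overlapped the ESC range of 123 to 372 CPM. Trp53 itself was called lower, at 19.2 and 23.4 CPM against 261 to 420 CPM, and of the 17 genes of p53 and its targets 7 were called higher, among them Mdm2, Phlda3 and Plk2, and 2 lower.

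Hox genes, which record position along the body axis and are classic PRC2 targets, changed in both directions. Of 38 matched genes 15 were too low to test, and of the other 23, 14 were called higher and 8 lower. Those called higher included Hoxa2, Hoxa5, Hoxa7, Hoxa9, Hoxa10, Hoxb3 to Hoxb9 and Hoxd8. Hoxb8 stood at 150 and 162 CPM against at most 0.175 CPM in ESCs, Hoxa5 at 153 and 205 CPM against 0.122 to 0.636 CPM, and Hoxb9 at 69.4 and 72.7 CPM against 0.905 to 3.32 CPM. Hoxb4 stood at 33.1 and 32.4 CPM. The tested genes of the Hoxc cluster (Hoxc4, Hoxc5 and Hoxc10 to Hoxc13), Hoxb13 and Hoxd13 were called lower, and among these Hoxc4 stood at 0.605 and 0.426 CPM in the OPC cultures. Hoxc13 fell from 10.2 to 18.9 CPM in ESCs to no count, at least 33.04-fold lower. The summed Hox level was 766 and 934 CPM in the OPC cultures and 40.7 to 73.1 CPM in ESCs.

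Among PRC2 subunits, 1 of 13 was called higher and 7 lower. Ezh2, the methyltransferase that H3.3K27M inhibits, stood at 176 and 188 CPM, below all ESC libraries (238 to 309 CPM), but the change did not reach 2-fold (log2 fold change -0.60, SE 0.17, adjusted p = 0.0076). The core subunits Eed (log2 fold change -1.57) and Suz12 (-2.38) were called lower. The accessory subunit Mtf2, which helps PRC2 to reach CpG islands, fell to 37.8 and 41.6 CPM from 318 to 407 CPM, while its relative Phf1 rose to 26.0 and 22.2 CPM from 3.34 to 6.36 CPM. Of 21 PRC1 subunits 7 were called higher and 8 lower. Among the chromobox proteins, which read H3K27me3, Cbx7 stood at 3.18 and 3.13 CPM against 141 to 202 CPM, and Cbx8 and Cbx6 were called higher. Bmi1, a PRC1 subunit that maintains progenitors, rose to 144 and 155 CPM from 13.8 to 25.4 CPM.

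Both genes that encode H3.3 were expressed in the OPC cultures, and whether reads of the transgene were counted under them is not given in the sources used here. H3f3b was called higher at 1152 and 1492 CPM against 442, 542 and 785 CPM (lowest, median and highest; log2 fold change 1.21, SE 0.20), and H3f3a overlapped at 74.9 and 72.9 CPM against 68.5 to 140 CPM. Of 13 tested genes of H3.3 and its chaperones 2 were called higher, Ubn1 and H3f3b, and 2 lower, Supt16h and Nap1l1. Among 14 genes of H3K27 demethylases, acetyltransferases and deacetylases 6 were called higher and 5 lower. Kdm6a, an H3K27 demethylase, was called lower (log2 fold change -1.75), and Kdm6b, the other one, did not pass at 97.4 and 97.9 CPM. The deacetylase genes Hdac7 (358 and 342 CPM against 2.79 to 5.99 CPM) and Hdac9 rose, and Hdac1 fell. Of 13 genes of DNA methylation 8 were called lower, among them Tet1, Dnmt3b and Uhrf1, and 2 higher, Dnmt3a and Tet3.

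Of 13 Hedgehog pathway genes tested, 6 were called higher and 3 lower. Gli1, the direct target by which pathway activity is usually read, had no count in the OPC libraries and 7.56 to 26.9 CPM in ESCs, at least 28.7-fold lower, and Ptch1 overlapped between the groups at 47.8 and 63.4 CPM. The methods name the Hedgehog activator only for the earlier embryoid body stage. The ventral factors Nkx2-2 and Nkx6-1 and the co-receptors Gas1, Cdon and Boc were called higher, as was Foxa2. Of 14 imprinted genes tested, 6 were called higher and 5 lower, with Meg3 at 20.3 and 11.1 CPM against 128 to 226 CPM and H19 at 9.23 and 5.26 CPM against 1.21 to 2.47 CPM. Of 17 cholesterol synthesis genes 7 were called higher and 4 lower. Of 13 genes of Myc, Lin28 and oncofetal growth 10 were called lower, among them Lin28a and Hmga1, and 2 higher, a count that was 0 to 2 when 1 library was left out. Myc itself stood at 56.3 and 45.04 CPM against 3.49 to 31.0 CPM (log2 fold change 1.45, adjusted p = 0.039), and was not called without the second ESC replicate at 4 h, either ESC library at 72 h or either OPC library, nor by DESeq2 (adjusted p = 0.11). Mycn fell to 1.06 and 0.852 CPM. Of 7 tested chemokine, cytokine and interferon genes 3 were called higher, among them the macrophage growth factor Csf1, and 1 lower.

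**Figure D2:**
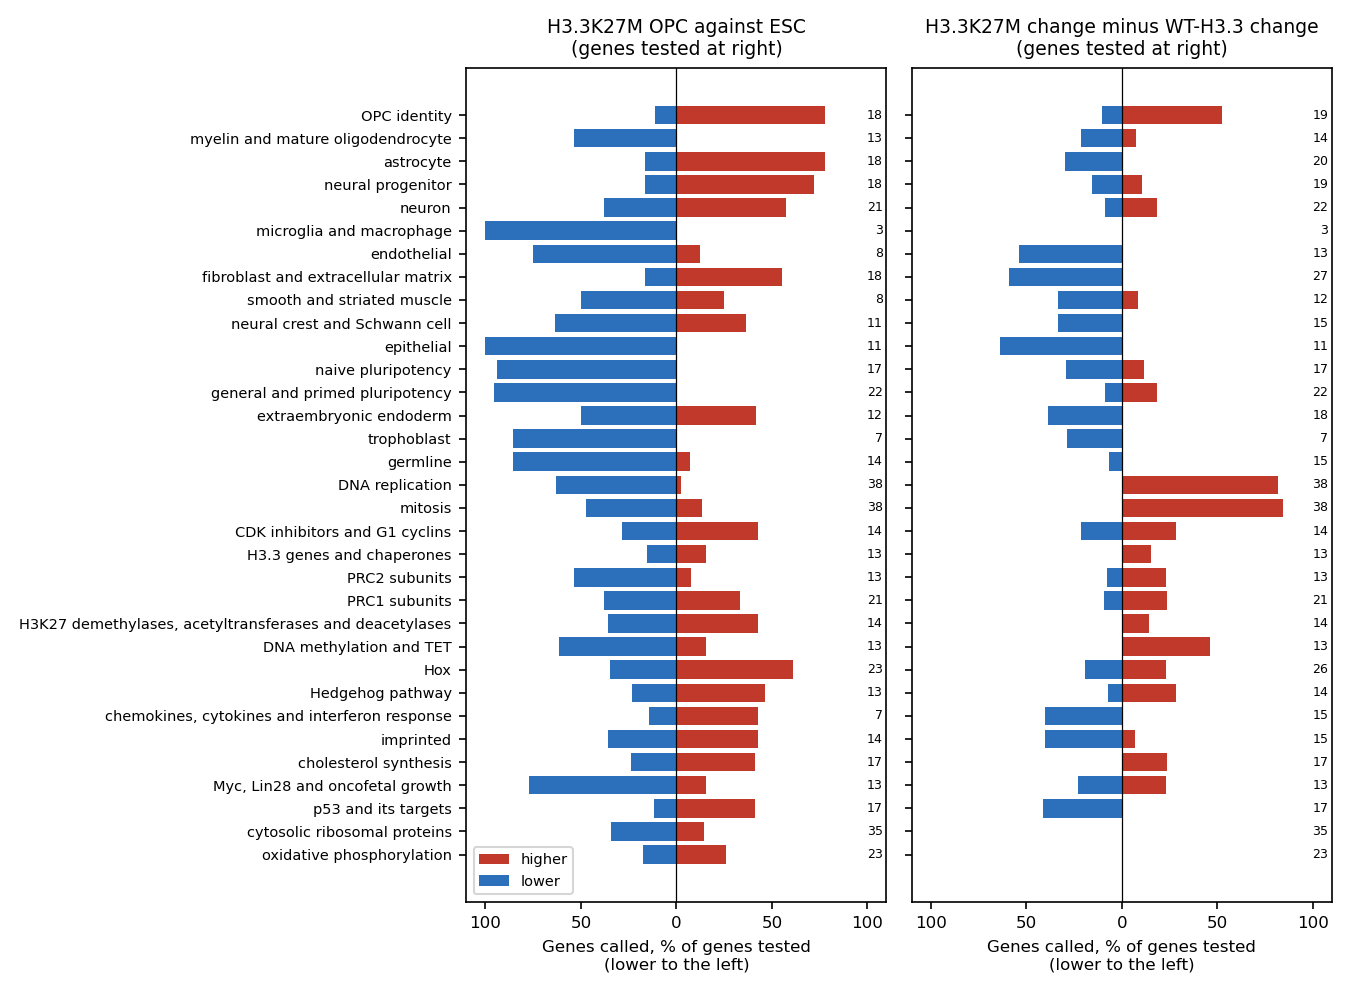
Share of the tested genes of each of the 33 lists that was called higher (red, right) or lower (blue, left), in % of the genes tested, whose number stands at the right edge. The left panel is the H3.3K27M OPC against ESC comparison, where pluripotency lists lie on the lower side (21 of 22 and 16 of 17). The right panel is the difference in that change between the lines, where DNA replication (31 of 38) and mitosis (32 of 38) lie on the higher side.

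The change from ESC to OPC cultures was then compared between the lines, as the H3.3K27M change minus the WT-H3.3 change, in a fit of all 20 libraries. Of 15442 genes tested, 1084 had a higher change in H3.3K27M cells (7.02%) and 1447 a lower one (9.37%), 16.4% in all. Without the WT-H3.3 OPC library at 24 h, 674 had a higher change. With a trend over gene length removed, 54.3% of the calls were higher ones, against 42.8% before. The lines shared no library, and each had 2 OPC libraries, which may come from a single differentiation.

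Cell cycle genes had a higher change in H3.3K27M cells. Of 38 DNA replication genes 31 had a higher change in H3.3K27M cells and none a lower one, and of 38 mitosis genes 32 and none, with median differences of 1.54 and 1.60 on the log2 scale against 0.01 over all genes. Top2a, which untangles replicated DNA, stood at 871 and 900 CPM in H3.3K27M OPC cultures and at 168 and 199 CPM in WT-H3.3 ones, with 937 to 1147 CPM and 851 to 1103 CPM in the respective ESCs. Its log2 difference in change was 2.14 (SE 0.20, adjusted p = 2.3e-06). For Ccnb1 the difference was 1.83 (SE 0.21) at 68.5 and 84.9 CPM in WT-H3.3 OPC cultures, and for Pcna it was 1.91 (SE 0.28) at 21.4 and 31.0 CPM. The summed level of the mitosis list was 6121 and 6166 CPM in H3.3K27M and 1963 and 2315 CPM in WT-H3.3 OPC cultures, and 6726 to 8076 CPM and 6689 to 7542 CPM in their ESCs. In the other direction, Cdkn1a (-1.79) and Mdm2 (-1.69) had a lower change in H3.3K27M cells, as had 7 of the 17 genes of p53 and its targets, with none higher. Without the WT-H3.3 OPC library at 72 h, 4 of these p53 genes were called. Cdkn2b, a further CDK inhibitor, stood at 6.96 and 12.1 CPM against 73.4 and 70.8 CPM in WT-H3.3 OPC cultures, while the difference for Cdkn2a (-0.82, SE 0.37, adjusted p = 0.13) did not pass.

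**Figure D3:**
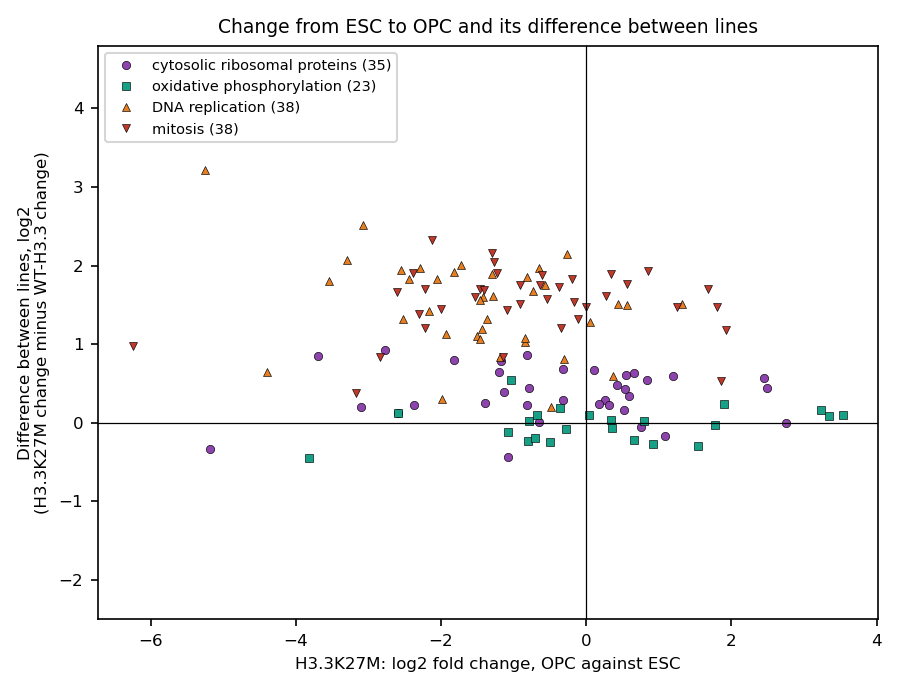
Log2 fold change of H3.3K27M OPC against ESC libraries (horizontal) and its difference from the WT-H3.3 change (vertical, log2) for the genes of 4 lists, 1 point per gene. Ribosomal and oxidative phosphorylation genes spread from -5.18 to 3.53 along the horizontal axis. On the vertical axis they have no call and medians of 0.39 and 0.02, while DNA replication and mitosis genes have medians of 1.54 and 1.60.

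The cell type lists differed as well. Of 19 OPC identity genes 10 had a higher change in H3.3K27M cells and 2 a lower one, Pdgfra and Sox10. Sox10 was not called without the H3.3K27M OPC library at 24 h, the WT-H3.3 OPC library at 72 h or the first H3.3K27M ESC replicate at 72 h. Olig2 stood at 350 and 294 CPM in WT-H3.3 OPC cultures (difference 1.88, SE 0.37, adjusted p = 0.0016) and Cspg4 at 9.06 and 11.04 CPM (difference 3.41, SE 0.76, not called without the first WT-H3.3 ESC replicate at 8 h). For Pdgfra the difference was -4.78 (SE 0.72, adjusted p = 1.5e-04). Gfap stood at 35.5 and 25.5 CPM in WT-H3.3 OPC cultures (difference -7.61, from 2 and 0 counts in H3.3K27M OPC cultures). Of 20 astrocyte genes 6 had a lower change and none a higher one.

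Fibroblast and matrix genes had a lower change in H3.3K27M cells. Of 27 tested, 16 had a lower change in H3.3K27M cells and none a higher one, with a median of -4.51. In H3.3K27M cells alone 18 were counted highly enough to test. For a gene that passed the filter only through the WT-H3.3 OPC libraries, a lower change was close to set by that filter. Over the alternatives other than leaving out 1 library, 6 to 29 were tested and the median ranged from -4.83 to -1.46. Without the first H3.3K27M ESC replicate at 72 h, 10 were called lower. Col1a1 stood at 170 and 177 CPM and Col3a1 at 222 and 253 CPM in WT-H3.3 OPC cultures, and the summed list at 5646 and 5213 CPM, against 1112 and 916 CPM in H3.3K27M OPC cultures. The Col3a1 difference was not called without the first H3.3K27M ESC replicate at 4, 24 or 72 h or the second at 8 h. A lower change was also called for 7 of 13 endothelial, 7 of 11 epithelial, 7 of 18 extraembryonic endoderm and 6 of 15 chemokine, cytokine and interferon genes. In H3.3K27M cells alone 8, 11, 12 and 7 genes of these lists were tested. The limit set by the filter therefore applies to these lists too, apart from the epithelial one. For the endothelial list, 4 were called without either OPC library at 72 h. Shh, the Hedgehog ligand, had 0.907 CPM and no count in H3.3K27M OPC cultures and 72.5 and 44.6 CPM in WT-H3.3 ones, and its difference had too large an error to be read (SE 184). The part of the share of fibroblasts or other cells in the differences of other genes was not tested.

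Genes of chromatin regulators differed in part. Of 13 PRC2 subunits 3 had a higher change, namely Ezh2 (1.62, SE 0.23), Suz12 (1.05) and Jarid2 (1.05), and 1 a lower one, Ezh1. Without the first H3.3K27M ESC replicate at 4 h or the second WT-H3.3 ESC replicate at 8 h, 1 subunit had a higher change and Suz12 was not called. Of 13 genes of DNA methylation 6 had a higher change and none a lower one, including Uhrf1 (2.07) and Dnmt1 (1.28). H3f3a had a higher change in H3.3K27M cells (1.56, SE 0.35), and stood at 26.99 and 28.97 CPM in WT-H3.3 OPC cultures, whereas the difference for H3f3b was -0.11 (SE 0.28, adjusted p = 0.90). Of 26 Hox genes 6 had a higher change, Hoxa7 and Hoxb9 among them, and 5 a lower one, including Hoxc4. These counts fell to 3 and 2 without the H3.3K27M OPC library at 72 h, to 3 and 3 without either WT-H3.3 OPC library, and the lower ones to 2 without the H3.3K27M OPC library at 24 h. The Sox2 difference of 0.38 (SE 0.20) and the Nanog difference of 2.13 (SE 1.12) did not pass.

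The genes of the lowest p-value with a higher change were Nr5a2, Gjc1, Tle6, Rcor2 and Pou3f1. Nr5a2 had 0.277 and 0.328 CPM in WT-H3.3 OPC cultures against 8.02 and 8.67 CPM (difference 4.86, SE 0.32). Tle6, a Groucho-related corepressor, stood at 322 and 313 CPM in H3.3K27M and at 17.9 and 12.9 CPM in WT-H3.3 OPC cultures. Pou3f1, a POU factor of neural and Schwann cell progenitors, stood at 251 and 183 CPM against 23.4 and 23.5 CPM. The genes of the lowest p-value with a lower change were Hspb8, Klf5, Clu, F11r and Hbegf. Hbegf, a ligand of the EGF receptor, stood at 33.1 and 30.1 CPM against 665 and 564 CPM in WT-H3.3 OPC cultures, and the small heat shock gene Hspb8 at 12.6 and 13.6 CPM against 450 and 398 CPM. Klf4 and Klf5, factors of naive ESCs that other tissues also use, stood at 111 and 103 CPM and at 61.0 and 57.2 CPM in WT-H3.3 OPC cultures, against 6.05 and 7.96 CPM and 2.87 and 3.41 CPM.

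**Figure D4:**
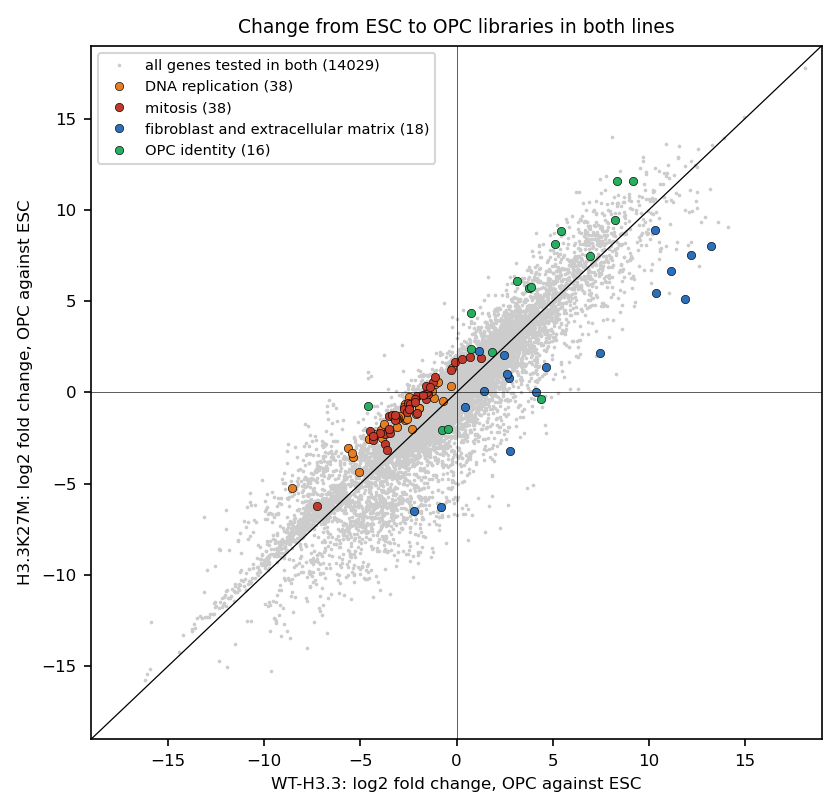
Log2 fold change of OPC against ESC libraries in WT-H3.3 (horizontal) and H3.3K27M cells (vertical) for the genes tested in both lines, with 4 lists in colour and the line of equal change. DNA replication and mitosis genes lie above that line and most fibroblast and matrix genes below it. In the fit of all 20 libraries the median differences were 1.54, 1.60 and -4.51. The last is over 27 genes, some of them too low in H3.3K27M cells to be drawn here.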

How the data were processed

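Per the submitters' processing notes and the methods, the authors aligned single-end reads with STAR 2.7.1 to mm9, with up to 10 mismatches, and deposited raw counts per gene. Kits of 2 kinds were used, and which library had which is not given in the sources used here. The OPC columns all carry 1 replicate number where the labels carry 2, so they were matched by line and Dox time. The series' other RNA tables and ChIP-seq data were not used here.

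The tables held 55471 genes, of which 32589 had a symbol. The methods exclude chromosome 8, which may be duplicated in all clones by karyotype, and its 2532 genes were dropped here too (1097 of them placed by table order). Total counts per library were 6590661 to 11949871 in H3.3K27M ESCs, 7499258 and 8303218 in H3.3K27M OPC cultures, 8245552 to 16083610 in WT-H3.3 ESCs, and 10496758 and 12387113 in WT-H3.3 OPC cultures. No library was a copy of another of its line and cell type, since the closest pair differed by a chi-square per gene of 4.47 in H3.3K27M and of 6.55 in WT-H3.3. Counting noise sets the floor of 3 counts, which covers counting error only.

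Each gene was fitted in edgeR 4.0.16 and tested by its quasi-likelihood method (limma 3.58.1, R 4.3.3; TMM, filterByExpr, Benjamini-Hochberg adjustment over all genes tested), with a mean for each ESC time point and 1 for the OPC libraries. The contrast was the OPC mean minus the average of the 4 ESC means. The step was tested on simulated counts with known changes in well-counted genes, with a single spread for all genes and independent libraries. That setting lacks the low counts and the likeness of some same-numbered libraries seen here. It checks the code and not the error rate in these data. DESeq2 1.42.0 served as an alternative.

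The members, the 33 gene lists and the tests were chosen with earlier results of these data known. Genes named are the key genes of each list, the 10 largest called changes per direction among genes of at least 20 CPM in the higher group whose OPC libraries lie outside all ESC libraries, the 5 lowest p-values per direction for the difference between lines, and Pdgfra, Olig2, Sox2, Nanog, H3f3a and H3f3b. Other members of the lists, and Eef1a1, Gapdh, Actb and the common genes given with them, were named after their values were seen. Promoter sequences are those of RefSeq (GRCm38.p6), and no coordinate of the files' build is printed. Results for some genes are not reported here.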

Additional observations from a re-analysis of the deposited data

Results flagged for a closer look

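In 81 named genes with an ESC mean of at least 1 CPM, a single library lay far from the other 7 H3.3K27M ESC libraries in 2 cases, both times the second ESC replicate at 72 h of Dox. There Ddx4, a germline RNA helicase, stood at 31.8 CPM and Gm13225 at 447 CPM. Chance alone sets about 1 group in 20 apart by this measure.

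Of 112 named genes tested for a difference between the lines in the OPC against ESC change, 53 passed, 23 of them with a higher and 30 with a lower change in H3.3K27M cells. Over all 15442 genes tested, 16.4% passed. The named genes include the 5 of lowest p-value per direction in this same test, which passed by choice. The count is therefore no result about the named genes as a set. All values are log2 differences, H3.3K27M minus WT-H3.3, from the fit of 20 libraries. Those of Sox10, Gfap, Tcfap2a, Epcam, Krt8, Gata4 and Hoxc4 rest on at most 4 counts in each H3.3K27M OPC library. In the oligodendrocyte lineage these were Olig2 (1.88), Cspg4 (3.41), Pdgfra (-4.78) and Sox10 (-4.20), and among astrocyte, progenitor and neuronal genes Gfap (-7.61), Clu (-4.89), Pax6 (3.40) and Rbfox3 (2.52). Genes of other lineages had lower changes, namely Pecam1 (-1.84), Col1a1 (-5.35), Col1a2 (-6.85), Col3a1 (-6.71), Lum (-3.80), Tcfap2a (-3.11), Epcam (-4.48), Krt8 (-3.41), Krt18 (-5.23), F11r (-5.27), Gata4 (-4.05), Gata6 (-3.47), Sox17 (-4.29) and Tcfap2c (-4.85).

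Among pluripotency genes, Esrrb (3.18) and Nr5a2 (4.86) had a higher change and Klf4 (-4.28) and Klf5 (-4.40) a lower one. Genes of replication, division and growth control were Mcm2 (1.11), Pcna (1.91), Cdk1 (1.70), Ccnb1 (1.83), Aurkb (2.16), Cdkn1a (-1.79), Mdm2 (-1.69) and Mycn (-1.50). Chromatin genes were H3f3a (1.56), Ezh2 (1.62), Suz12 (1.05), Cbx2 (2.19), Dnmt3b (1.27) and Tet1 (2.14), with Hoxc4 (-2.61) and the imprinted genes H19 (-4.43) and Dlk1 (-4.28) on the lower side. The others were Ptn (3.27), Gjc1 (2.77), Tle6 (4.13), Rcor2 (2.63), Pou3f1 (3.64), Hspb8 (-5.11) and Hbegf (-4.35).

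For Tek, L1td1 and Grm5 the fitted values of -6.69, -6.01 and 6.18 are no measured sizes, since the H3.3K27M OPC libraries had no count of Tek or L1td1 and the H3.3K27M ESC libraries none of Grm5. With 3 counts per library in place of 0 in the OPC libraries, the difference was -1.66 for Tek and -0.99 for L1td1, taken from ratios of mean CPM. The calls for Lum, Mycn and Pecam1 were lost in 18, 16 and 16 of the alternatives run, those for Col1a2, Col3a1, Gata6, L1td1, Pax6, Sox10, Tcfap2a and Tek in 2 to 6, those for Grm5 and Suz12 in 2, and those for Cspg4 and Ptn in 1.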

How the results depend on the processing

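No call of a named gene turned to the other direction, but counts and medians did. For the difference between lines, 1084 higher and 1447 lower calls became 1483 and 1247 with the gene length trend removed, and 814 and 686 with at least 10 counts in every library. For OPC against ESC the median log2 fold change ranged from -2.19 to 0.19 for myelin genes, from -3.21 to 0.22 for neural crest genes and from -0.44 to 0.05 for ribosomal genes over the alternatives other than leaving out 1 library. Requiring at least 10 counts in every library, which drops genes silent in 1 cell type, left 4806 genes called between OPC and ESC libraries (2356 higher, 2450 lower) and 32 of the named genes, against 83. It left 1500 calls for the difference between lines, 686 of them lower. A 4-fold threshold left 2747 higher calls for OPC against ESC, and 1211 for the difference between lines (337 higher, 874 lower). DESeq2 called 9306 and 2659 genes. Leaving out 1 library at a time gave 9179 to 10095 calls for OPC against ESC (4221 to 4641 higher, 4958 to 5536 lower), 81 to 86 named genes, and 1804 to 2704 calls for the difference between lines (674 to 1152 higher, 1004 to 1552 lower). The Spearman difference ranged from -0.388 to -0.379, and the limit of its permutation p described in the results holds here too. With 1 OPC library left, it is assumed to vary like the others. The median log2 fold change of all genes was -0.23, and -0.35 with total counts as the only scaling.

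Whether replicate numbers pair ESC and OPC libraries cannot be told, since number and Dox time coincide in the OPC labels. Deviations of same-numbered ESC and OPC libraries correlated at -0.0294 to 0.00202 over the 4 ESC times. Among H3.3K27M ESCs at 4 and 8 h, same-numbered libraries differed by a chi-square per gene of 4.49 and 9.64, and differently numbered ones by 30.8 to 46.2. This did not hold at all times. The first replicate at 72 h differed by 30.9 from the first at 4 h and by 9.01 from the second. With the replicate number as a block, 9530 genes were called between OPC and ESC libraries, 2855 for the difference between lines, and 84 named genes.

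With 2 OPC libraries per line, and 1 per Dox time, an effect of Dox time in the OPC cultures was not tested. For genes with no count in either OPC library, depth sets the limit, and a fold is a lower bound.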
